A study of Mus musculus with 8 samples.

Results

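The microRNA processing and effector genes described here are 10 genes, chosen by name, of the 21895 genes in the deposited table. They are Drosha and Dgcr8, Xpo5, Dicer1 and Tarbp2, the Argonaute genes Ago1 to Ago4, and Tnrc6a. Each of the 10 symbols was found once, and each passed the filter on low values. No rule on their values was used to choose them, but earlier results of these data were known at the time. RNA was taken from the cochlea of miR-29a WT mice and of mice without miR-29a (miR-29a KO, labelled miR-29a-/-), a line on the C57BL/6 background bred from heterozygotes, with females and males both used. The study compared the genotypes to ask which genes differ in a cochlea that lacks this microRNA. Each genotype had 4 libraries, here WT1 to WT4 for WT and KO1 to KO4 for KO. The series record gives the age of the mice as 21 days and the methods of the study give 2 months. The records do not say whether each library came from a separate animal or from a pool. The p-values below therefore set the genotype difference against the spread between these libraries, which may not be that between animals. The deleted microRNA itself was not analysed here, and the genotype labels were therefore not checked against it.

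MicroRNAs are short RNAs that lower the output of messenger RNAs. DROSHA and its partner DGCR8 cut the primary transcript in the nucleus, exportin 5 (the product of Xpo5) carries the hairpin to the cytoplasm, and DICER1 with its partner TRBP (the product of Tarbp2) cuts the hairpin to a duplex. An Argonaute protein keeps 1 strand of it, and GW182 proteins such as TNRC6A connect Argonaute to the machinery that shortens poly(A) tails and blocks translation. AGO2 is the Argonaute that can itself cut a fully paired target. Loss of Dicer1 from the developing inner ear is known to disturb hair cells.

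The deleted microRNA pairs with its targets through its seed, bases 2 to 8, and shares that seed with the other members of its family. The mature RNAs are shown because the target sites in the genes below are read against them. They come from RefSeq (GRCm38.p6), with the seed in capitals.
mmu-miR-29a-3p: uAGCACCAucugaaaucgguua
mmu-miR-29b-3p: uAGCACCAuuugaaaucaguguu
mmu-miR-29c-3p: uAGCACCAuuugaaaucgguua
Mir29a lies on chromosome 6 on the minus strand, with the mature RNA at chr6:31062673-31062694. The gene Mir29b-1 lies next to it, whereas Mir29b-2 and Mir29c lie on chromosome 1. All 3 mature RNAs have the seed AGCACCA.

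The match to this seed, TGGTGCT in the sense strand, was looked up in the longest annotated 3′-UTR of each gene (GENCODE mouse release 21). It was found in 4 of the 10 genes and in 15.5% of the 14832 tested genes that have an annotated 3′-UTR. The median 3′-UTR of the 10 genes was 3014 bases long, against 1181 bases over the tested genes. Dicer1 and Xpo5 held 1 match each, Ago1 held 1 and Ago3 held 2, and the other 6 genes held 0. The 5 sites are shown with the match in capitals and in the 5′ to 3′ direction of the messenger RNA.
Dicer1: cattttcccgtTGGTGCTacgtt
Xpo5: ctcctcctgccTGGTGCTtgggg
Ago1: agaggctgggtTGGTGCTctccc
Ago3 first site: ttttttgaagaTGGTGCTgtaga
Ago3 second site: attcctttcggTGGTGCTaaagt
The match in Dicer1 covers bases 1195 to 1201 of its 3851-base 3′-UTR (chr12:104690392-104690398, minus strand), and that in Xpo5 covers bases 1097 to 1103 of 1327 (chr17:46243368-46243374, plus strand). The match in Ago1 covers bases 3925 to 3931 of 4491 (chr4:126435572-126435578, minus strand). Those in Ago3 cover bases 5410 to 5416 and 10727 to 10733 of 12742 (chr4:126340058-126340064 and chr4:126334741-126334747, minus strand). An A follows the match in Dicer1 and at the second site of Ago3, which makes it the 8-base form of the match. A match is a description of the letters and was not tested as a site in the cochlea.

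The values are FPKM (fragments per kilobase of transcript, scaled to the mapped fragments of the library), which are per length, so that levels of different genes can be set side by side. The depth of the libraries is unknown because FPKM carry no counts. From the most common ratio of values under 0.1 FPKM, the relative depth was estimated at 0.953 to 1.17 of the median library. WT1 stood apart. Its correlation across the 14990 tested genes with the other WT libraries was 0.725 to 0.821, against 0.924 to 0.957 between KO libraries. Its 10 highest genes took 17.6% of all FPKM, against 8.50% to 10.9% elsewhere. The value of 0.725 was the correlation of WT1 with WT3. The highest correlation of WT3 with a WT library was 0.920, against 0.962 for WT2 and for WT4. The factor that brings the median gene-wise ratio to a common level was 0.776 in WT1, whereas the other 7 ranged from 0.939 to 1.09. Without this scaling the log2 fold change had a median of 0.10 over all genes tested, with 691 genes higher and 76 lower in KO at an unadjusted p-value under 0.05. With it the median was 0.0043, with 402 higher and 363 lower. Defining genes of hair cells, supporting cells, stria vascularis, fibrocytes and spiral ganglion neurons were above 0 in every library. Marker sums of other cells varied far more, with the neutrophil list (6 genes) at 29.3 to 8909 FPKM in WT and 1478 to 4727 in KO, and the list of dividing cells (5 genes) at 3.70 to 211 in WT and 63.9 to 161 in KO. The bone list (5 genes) was the 1 list with separate groups, at 93.2 to 537 FPKM in WT and 560 to 694 in KO. Within it Col1a1 had separate groups, at 64.1 to 241 in WT and 282 to 424 in KO. Bglap, Bglap2, Dmp1 and Sost overlapped. These sums are of deposited FPKM, without median-ratio scaling. WT3 had the lowest sums of the neutrophil, dividing-cell and bone lists. In whole tissue, fewer cells of a type and less RNA per cell cannot be told apart.

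The 10 genes spanned about 10-fold in level. Tnrc6a was the highest, with a mean of 29.7 FPKM over the 8 libraries, and Ago4 the lowest, with 3.03 FPKM. Between them came Dicer1 (21.6), Ago2 (17.4), Drosha (16.1), Dgcr8 (12.4), Xpo5 (12.3), Ago1 (11.7), Ago3 (10.4) and Tarbp2 (5.61), all as mean FPKM. Of neighbours in this order, only Ago3 and Tarbp2 had ranges that did not overlap. Tnrc6a exceeded Dicer1, Drosha exceeded Dgcr8, Ago1 exceeded Ago3 and Tarbp2 exceeded Ago4 in 8 of 8 libraries although their ranges overlapped, and Dicer1 exceeded Ago2 in 7. The order of Ago2 and Drosha, of Dgcr8 and Xpo5, and of Xpo5 and Ago1 changed from library to library.

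Against genotype, Ago2 was the 1 gene of the 10 called by limma at an unadjusted p-value under 0.05, the threshold of the study, and it was higher in KO. Over all tested genes 5.12% were called, 4.61% higher and 0.507% lower in KO, so that 1 of 10 is near the share over all genes. By the exact permutation test over the 70 ways to assign 4 of the 8 libraries to KO (two-sided, smallest possible p = 0.0286) the call was not kept, with p = 0.114 for Ago2 and p-values of 0.229 to 0.943 for the other 9 genes. No gene of the 10 passed with Benjamini-Hochberg adjustment over all genes (limma, adjusted p-values of 0.947 to 0.999), and over all genes 0 of 14990 did. The 10 log2 fold changes had a median of 0.016 and 6 of them were above 0, whereas 66.5% of all tested genes were above 0. The groups overlapped for each of the 10 genes, and they did not overlap for 3.50% of all tested genes (3.02% with KO above WT and 0.487% below). Without WT1, 2 of the 10 genes were called, Ago2 higher and Ago3 lower, in a fit that called 19.5% of all genes, 12.1% higher and 7.40% lower. The 95% intervals of the fold changes lay between 0.679-fold and 1.73-fold, so that larger changes than these lay outside the interval of every gene.

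**Figure D1:**
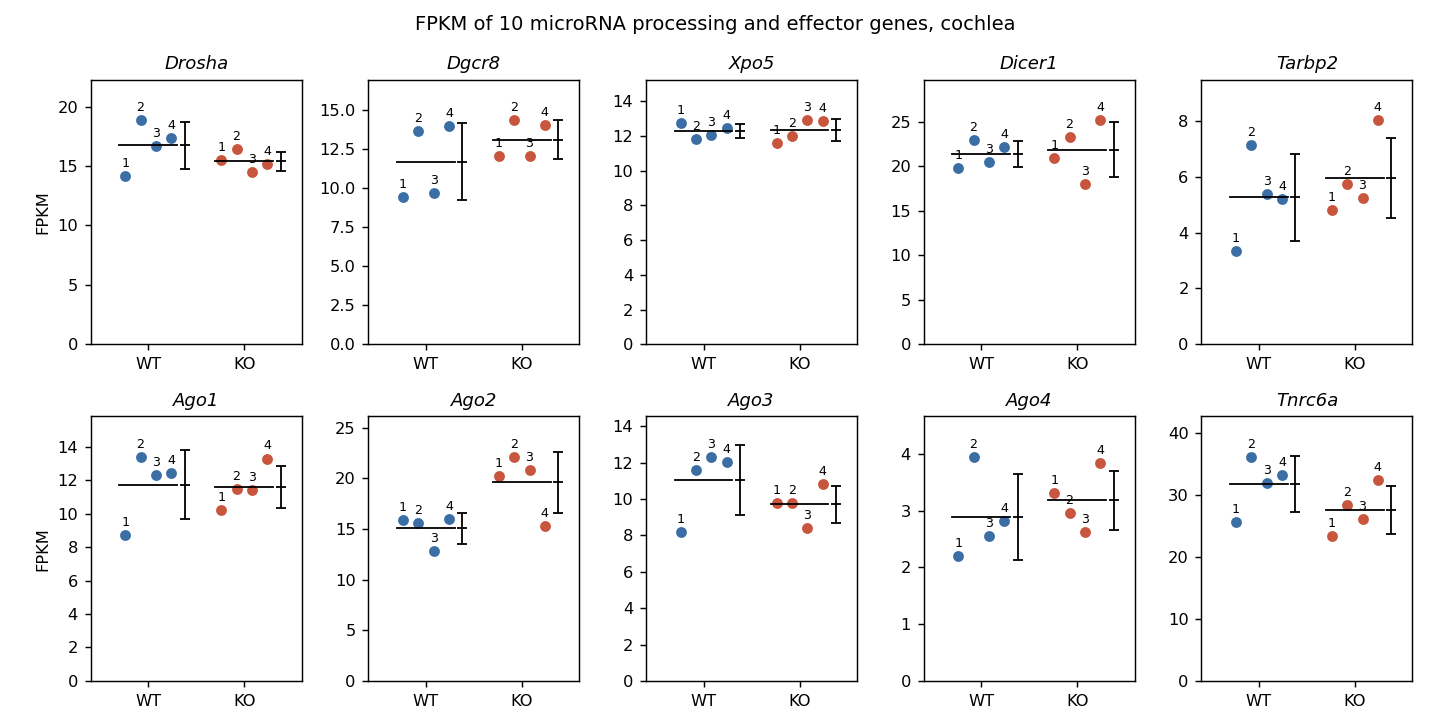
FPKM of each of the 10 genes (vertical axes, from 0) in the 4 WT libraries (blue) and the 4 KO libraries (red), with the library number above each point, the group mean as a line and the SD as a bar. KO1 to KO3 lie above all WT libraries for Ago2, with 20.2 to 22.1 FPKM, and KO4 does not.

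Drosha (ENSMUSG00000022191, chr15:12824815-12935291 of GRCm38, plus strand), the nuclease that makes the first cut, had 14.1, 18.9, 16.7 and 17.4 FPKM in WT1 to WT4 and 15.5, 16.4, 14.5 and 15.2 in KO1 to KO4. The KO values lay within the WT range, and the spread was wider in WT. The log2 fold change was -0.12 (standard error 0.13, interval -0.41 to 0.18, limma adjusted p = 0.968). Dgcr8 (ENSMUSG00000022718, chr16:18253948-18289246, minus strand), which binds the hairpin for DROSHA, had 9.44, 13.7, 9.68 and 14.0 FPKM in WT and 12.0, 14.4, 12.0 and 14.0 in KO. WT1 and WT3 were the low libraries, and the other 6 lay close together. Its log2 fold change was 0.18 (standard error 0.17, interval -0.21 to 0.58, limma adjusted p = 0.963).

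The messenger RNA of Dgcr8 is itself a substrate of the DROSHA and DGCR8 complex, which is known to cut hairpins near its 5′ end and so to hold its own level down. The hairpin of Mir1306 lies there, in an exon of both protein-coding Dgcr8 transcripts (GENCODE mouse release 21), with its mature RNAs at chr16:18284288-18284310 and chr16:18284248-18284268. They are shown with bases 2 to 8 in capitals (RefSeq, GRCm38.p6).
mmu-miR-1306-5p: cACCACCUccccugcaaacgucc
mmu-miR-1306-3p: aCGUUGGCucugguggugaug
The ratio of Drosha to Dgcr8 FPKM within a library does not depend on scaling between libraries. It was 1.497, 1.38, 1.73 and 1.24 in WT1 to WT4 and 1.29, 1.14, 1.204 and 1.08 in KO1 to KO4. The KO ratios were lower on average (1.179 ± 0.0881 against 1.46 ± 0.206, SD, n = 4 each), but KO1 lay above WT4, so the groups overlapped. No test was made of ratios between these genes.

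Xpo5 (ENSMUSG00000067150, chr17:46202782-46243598, plus strand), the exporter of the hairpin, was the steadiest of the 10 genes across WT libraries. Its FPKM was 12.7, 11.8, 12.1 and 12.5 in WT and 11.6, 12.0, 12.9 and 12.9 in KO, a coefficient of variation of 3.24% and 5.29%. The groups lay on top of each other, with a log2 fold change of 0.0075 (standard error 0.11, interval -0.25 to 0.26, limma adjusted p = 0.996). After median-ratio scaling WT1 was the highest library for Xpo5, with 16.4 against 10.95 to 12.4 in the other 7, and the log2 fold change was -0.092.

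Dicer1 (ENSMUSG00000041415, chr12:104687742-104751952, minus strand), the nuclease that makes the second cut, had 19.8, 22.96, 20.5 and 22.1 FPKM in WT and 21.0, 23.3, 18.0 and 25.2 in KO. KO3 was the lowest and KO4 the highest of all 8 libraries, so that the KO range contained the WT range. The log2 fold change was 0.025 (standard error 0.14, interval -0.29 to 0.34, limma adjusted p = 0.990), and it was -0.075 after median-ratio scaling. Dicer1 holds an 8-base match to the miR-29a seed, and its level in KO was between 0.817-fold and 1.27-fold of that in WT by the 95% interval. Tarbp2 (ENSMUSG00000023051, chr15:102518192-102523676, plus strand), which encodes the double-stranded RNA binding partner of DICER1, had 3.34, 7.14, 5.37 and 5.202 FPKM in WT and 4.82, 5.74, 5.24 and 8.04 in KO. WT1 was low, WT2 and KO4 were high, and the groups overlapped widely. Its log2 fold change was 0.20 (standard error 0.26, interval -0.39 to 0.79, limma adjusted p = 0.975), and it was -0.00019 without WT1. Of the 50-base words of its transcripts, 14.3% also occur in another gene, against 0% to 4.75% for the other 9 genes, so reads could be split there.

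The Argonaute genes fall on 2 chromosomes. Ago3, Ago1 and Ago4 follow each other on chromosome 4, all on the minus strand, from 126331704 to 126533472, and Ago2 (ENSMUSG00000036698) stands alone on chromosome 15 (chr15:73095844-73184935, minus strand). Ago2 had 15.8, 15.6, 12.8 and 16.0 FPKM in WT1 to WT4 and 20.2, 22.1, 20.8 and 15.3 in KO1 to KO4. KO1 to KO3 lay above every WT library, and KO4 lay among them. The mean was 19.6 FPKM ± 3.004 in KO and 15.1 ± 1.51 in WT (SD, n = 4 each). The log2 fold change was 0.37, a fitted fold of 1.29 (standard error 0.15, interval 0.018 to 0.72), with a limma p = 0.0413 against an exact permutation p = 0.114, and an adjusted p = 0.947. Relative to the median of all genes it was 0.27.

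The limma call for Ago2 ended when any of 6 of the 8 libraries was removed, while the direction was kept. It was lost when WT2, WT3, WT4, KO1, KO2 or KO3 was left out, with log2 fold changes of 0.30 to 0.40, and it was kept without WT1 (0.40, adjusted p = 0.219) and without KO4 (0.49, adjusted p = 0.748). After median-ratio scaling, Ago2 in WT1 was 20.4 FPKM, within the range of KO1 to KO3 at 19.3 to 21.6, and the log2 fold change was 0.27, no longer called (exact permutation p = 0.286). With the 6 libraries numbered 1 to 3 alone it was 0.52 (limma adjusted p = 0.981), called in a fit where 4.23% of all tested genes were called higher.

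Ago1 (ENSMUSG00000041530, chr4:126435012-126468583) had 8.71, 13.4, 12.3 and 12.4 FPKM in WT and 10.2, 11.4, 11.4 and 13.3 in KO. WT1 was the lowest library and the others overlapped, with a log2 fold change of -0.0031 (standard error 0.17, interval -0.39 to 0.38, limma adjusted p = 0.999). Ago3 (ENSMUSG00000028842, chr4:126331704-126429556), which holds 2 of the 5 seed matches printed above, had 8.21, 11.6, 12.3 and 12.0 FPKM in WT and 9.79, 9.78, 8.39 and 10.8 in KO. Every KO value lay below WT2 to WT4, and WT1 was lower than all of them. The log2 fold change of Ago3 was -0.17 (standard error 0.17, interval -0.56 to 0.21, limma adjusted p = 0.965). Without WT1 it was -0.31 and called (limma adjusted p = 0.217). Ago4 (ENSMUSG00000042500, chr4:126489541-126533472), the least abundant Argonaute, had 2.20, 3.95, 2.56 and 2.82 FPKM in WT and 3.31, 2.96, 2.62 and 3.84 in KO. WT1 was again the lowest, and the groups overlapped (log2 fold change 0.16, standard error 0.23, interval -0.36 to 0.68, limma adjusted p = 0.977).

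**Figure D2:**
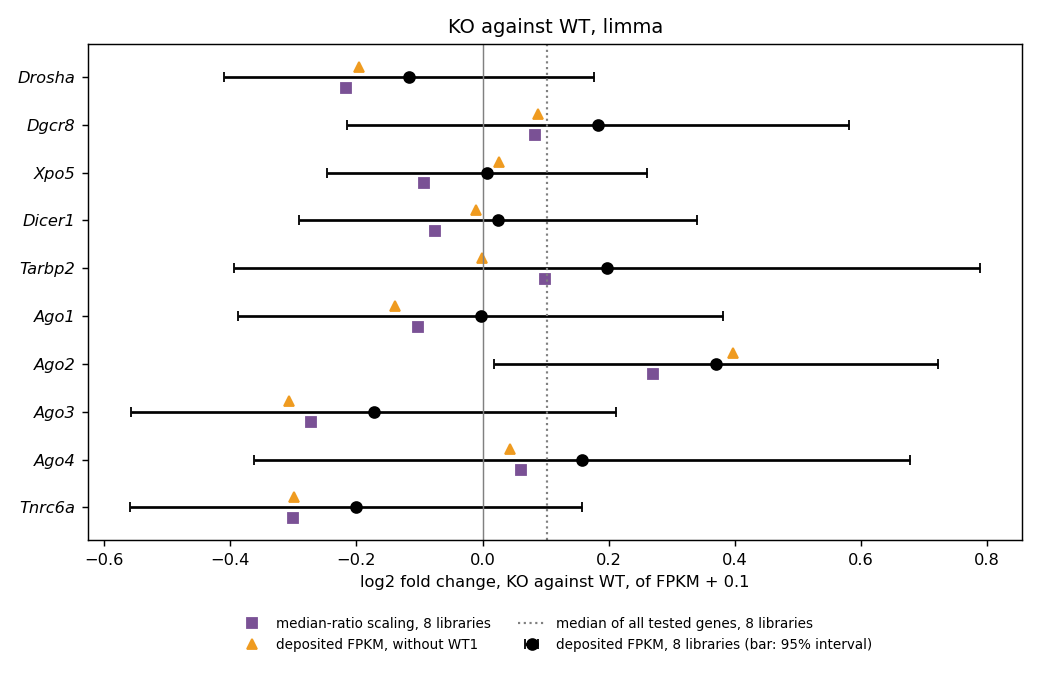
Log2 fold change of FPKM + 0.1, KO against WT (horizontal axis), of each gene in the limma fit of the 8 libraries (black, with its 95% interval), after median-ratio scaling (squares) and without WT1 (triangles). The interval of Ago2 begins at 0.018 and those of the other 9 genes span 0, and Drosha, Ago1, Ago3 and Tnrc6a lie below 0 in all 3 fits, Ago1 at -0.0031 in the first.

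The share of each Argonaute in their summed FPKM was compared within libraries, where scaling plays no part. Ago2 took 45.3%, 35.0%, 32.0% and 37.0% in WT1 to WT4 and 46.5%, 47.8%, 48.2% and 35.3% in KO1 to KO4. The share was thus high in WT1 and KO1 to KO3 and low in WT2 to WT4 and KO4, and it did not follow the genotype label in WT1 and KO4. The summed Argonaute level itself was 35.0 to 44.5 FPKM in WT and 43.2 to 46.3 in KO. Ago3 took 23.5%, 26.1%, 30.8% and 27.7% in WT and 22.5%, 21.1%, 19.4% and 25.03% in KO, so that its lowest shares were in KO1 to KO3. The ratio of Ago2 to Ago3 ran from 1.04 in WT3 to 2.48 in KO3, with WT1 at 1.93 and KO4 at 1.41.

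The 4 libraries with the highest Ago2 share were also the 4 with the highest sums of the erythroid, neutrophil, B-lineage and dividing-cell lists. The dividing-cell sum (Mki67, Top2a, Cdk1, Ccnb1 and Mcm5) was 138 to 211 FPKM in those libraries and 3.70 to 63.9 in the other 4. The neutrophil sum was 2181 to 8909 against 29.3 to 1478, and the erythroid sum 6059 to 11632 against 437 to 4732. By single markers, the same 4 libraries were the highest for 5 of 5 erythroid, 5 of 6 neutrophil, 4 of 5 dividing-cell, 4 of 5 bone and 2 of 5 B-lineage genes. The bone sum did not set them apart, at 537 to 694 FPKM against 93.2 to 592 in the other 4. Neither did the sums for fibrocytes, spiral ganglion neurons and skeletal muscle, in which these libraries were neither the 4 highest nor the 4 lowest. Tnnt3 of the skeletal muscle list was at 0 in WT3, and no other marker was at 0 in any library. WT3, which had the lowest Ago2 share, also held 0.0893 FPKM of Elane and 0.101 of Mpo, both granule genes of immature neutrophils. The same 4 libraries had the lowest sums of the stria vascularis list, at 87.4 to 96.9 FPKM against 126 to 203, with 5 of 5 single markers in that order. They were also lowest for the supporting cell sum (106 to 150 against 169 to 255, 2 of 4 markers) and, by a narrow gap, for the hair cell sum (14.2 to 21.86 against 21.92 to 27.0, 0 of 5 markers). This order is that of the share and not of the deposited level. In WT1 the level of Ago2 was 15.8 FPKM, within the 12.8 to 16.0 of WT2 to WT4, and 20.4 after median-ratio scaling. The part of these cells in the share or the level of Ago2 was not tested.

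**Figure D3:**
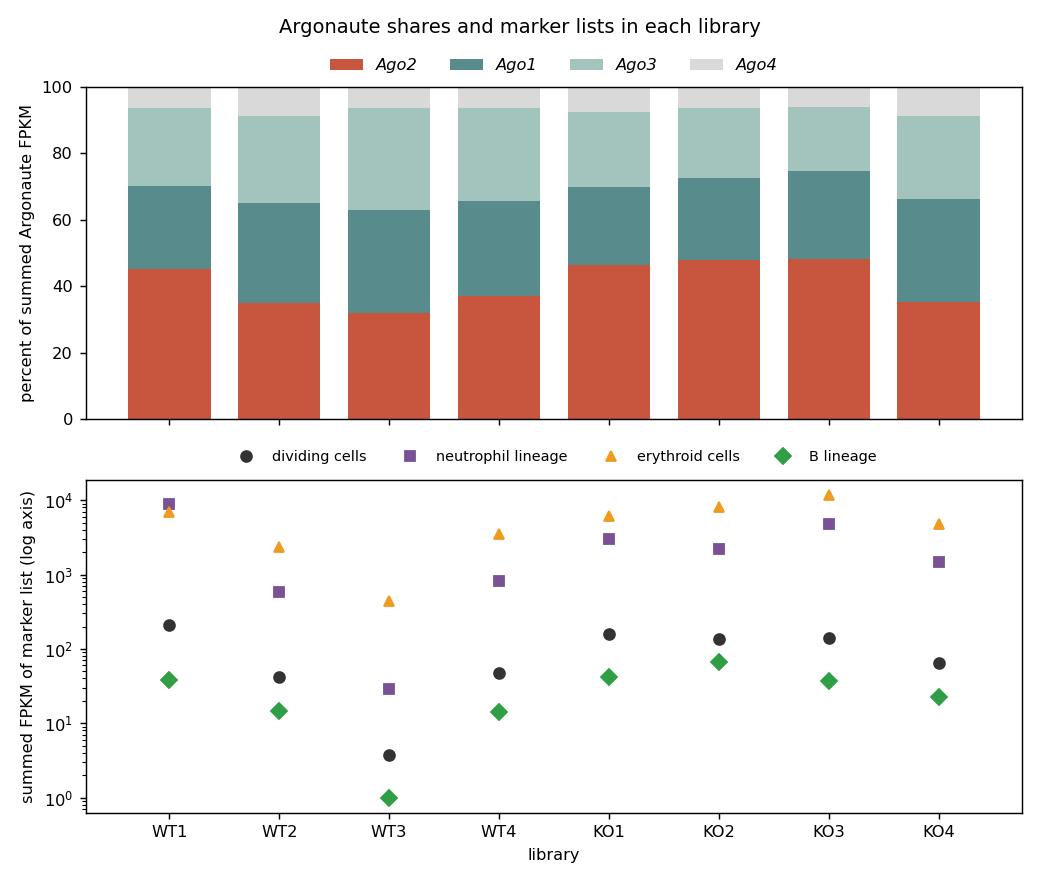
Top, the percent of the summed Argonaute FPKM taken by each of the 4 genes in each library (stacked bars), and bottom, the summed FPKM of 4 marker lists in the same libraries (log axis). Ago2 takes 45.3% to 48.2% in WT1 and KO1 to KO3 and 32.0% to 37.0% in the other 4 libraries, where each of the 4 lists is also lower.

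Tnrc6a (ENSMUSG00000052707, chr7:123123885-123195296, plus strand), the scaffold that Argonaute binds, had 25.7, 36.2, 32.0 and 33.4 FPKM in WT and 23.4, 28.5, 26.2 and 32.5 in KO. KO1 to KO3 lay below WT2 to WT4, while WT1 lay among the KO libraries and KO4 among the WT libraries. The log2 fold change was -0.20 (standard error 0.16, interval -0.56 to 0.16, limma adjusted p = 0.950). After median-ratio scaling the values were 33.1, 34.8, 31.0 and 31.4 in WT and 24.9, 26.0, 24.2 and 30.8 in KO, and every KO library lay below every WT library. In that fit the log2 fold change was -0.30 (limma p = 0.0270, adjusted p = 0.894, exact permutation p = 0.0286), with 5.10% of all tested genes called, 2.42% of all genes lower. Without WT1, and with no scaling, it was also -0.30 and not called (limma adjusted p = 0.262). Ago3 had separate groups on the scaled values too, at 10.6, 11.2, 11.9 and 11.3 in WT and 10.4, 8.93, 7.76 and 10.2 in KO. These were 2 of the 10 genes, against 3.82% of all tested genes with separate groups after scaling and 1.97% with KO below WT. The log2 fold change of Ago3 there was -0.27, with a limma p = 0.0643 and an exact permutation p = 0.0286, the smallest it can give.

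TNRC6A has 2 paralogues that do the same work, and Tnrc6a took 33.2%, 37.9%, 40.7% and 37.3% of the summed FPKM of Tnrc6a, Tnrc6b and Tnrc6c in WT1 to WT4 and 29.7%, 32.8%, 31.7% and 35.0% in KO1 to KO4. KO1 to KO3 had the 3 lowest shares, and WT1 lay below KO4. Tnrc6b had 29.2 to 38.2 FPKM in WT and 35.3 to 38.4 in KO, and Tnrc6c had 13.5 to 22.8 and 20.2 to 22.1. Neither was called (limma adjusted p = 0.975 and adjusted p = 0.968). Set against the Argonaute genes, Tnrc6a was at 0.734, 0.813, 0.799 and 0.771 of their summed FPKM in WT1 to WT4 and at 0.538, 0.615, 0.605 and 0.753 in KO1 to KO4. In this ratio KO1 to KO3 lay below all WT libraries, WT1 included, and KO4 lay between WT1 and WT4.

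The seed matches were set beside these values. The 4 genes with a match in the 3′-UTR had log2 fold changes of 0.025 (Dicer1), 0.0075 (Xpo5), -0.0031 (Ago1) and -0.17 (Ago3), and none of the 4 was called. The 6 genes without a match ran from -0.20 (Tnrc6a) to 0.37 (Ago2). Ago2, the gene called higher in KO, has a 3′-UTR of 11064 bases without the 7-base match.

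WT1 was the lowest of the 8 libraries for 6 of the 10 genes, Drosha, Dgcr8, Tarbp2, Ago1, Ago3 and Ago4, and the highest for 0. WT2 was the highest for 4, KO2 and KO4 for 2 each, and WT3 and KO3 for 1 each. The mean over the 10 genes of log2(FPKM + 0.1), centred per gene, was -0.28 in WT1, 0.18 in WT2, 0.16 in KO4 and -0.078 to 0.065 in the other 5 libraries. Among 14036 other genes with a mean of at least 1 FPKM, those with the pattern most like this mean over the 8 libraries were Phf20, Mon2, St3gal2, Fam214a and Mical3, with Pearson correlations of 0.986, 0.984, 0.982, 0.977 and 0.977. Without WT1 these were 0.971, 0.964, 0.976, 0.946 and 0.952. The genes were picked for this likeness over 8 libraries that share the same scaling, and no p-value is given. Their log2 fold changes between KO and WT were 0.031 to 0.14.

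Of 81 further genes of the pathway, listed by role, 80 passed the filter on low values (Trim71 did not), and 6 were called, all 6 higher in KO. That is beside 4.61% of all genes called higher. By the exact permutation test 4 were under 0.05, Khsrp and Eif4enif1 among the 6 and Cnot6 and Lsm14a besides (named after their values were seen). Each of these 4 had separate groups, as did 3.50% of all tested genes. After median-ratio scaling the exact permutation p was 0.0286 for Khsrp and Lsm14a, 0.343 for Eif4enif1 and 0.8 for Cnot6. None of the 80 passed with adjustment over all genes (limma, smallest adjusted p = 0.947). Of the 80 log2 fold changes 62 were above 0, against 66.5% over all tested genes, with a median of 0.14 against 0.10. After median-ratio scaling 48 of the 80 were above 0, against 7585 of all 14990 tested genes. The median was then 0.038 and 3 genes were called, Eif4e2, Khsrp and Rcc1. Of the 6 called genes, 2 (Btg2 and Limd1) hold the seed match in the 3′-UTR, as do 14 of the 81.

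Among partners of the nuclear step, 1 of 12 genes was called higher and 10 of 12 log2 fold changes were above 0. Calls in these lists are by unadjusted limma, which called 4.61% of all genes higher, and none passed adjustment. Counts above 0 in these lists stand beside 66.5% of all tested genes. Khsrp, a protein that binds terminal loops of some hairpins and aids their cutting, had 19.2, 28.8, 25.6 and 28.8 FPKM in WT and 33.7, 34.2, 33.7 and 29.3 in KO. All KO libraries lay above all WT libraries, KO4 by little (log2 fold change 0.37, standard error 0.16, limma p = 0.0454, exact permutation p = 0.0286). In export, where all 3 log2 fold changes were above 0, 1 gene was called, Rcc1, which charges the GTPase RAN with GTP in the nucleus. Rcc1 had 2.22, 5.82, 3.27 and 6.09 FPKM in WT and 6.67, 8.84, 8.36 and 5.61 in KO, with KO4 within the WT range (log2 fold change 0.84, standard error 0.33, limma p = 0.0347, exact permutation p = 0.0857).

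Of 13 genes for decapping, decay and translational repression, 2 were called higher and 9 had log2 fold changes above 0. Eif4e2 encodes a cap-binding protein that competes with the translation factor eIF4E, and it had the smallest p-value of the 80 genes. Its FPKM was 11.04, 7.88, 12.7 and 8.76 in WT and 18.0, 12.0, 21.2 and 19.1 in KO. KO2 lay below WT3, so the groups overlapped, and the log2 fold change was 0.79 (standard error 0.22, limma p = 0.00655, exact permutation p = 0.0571). Eif4enif1, the transporter and repressor partner of eIF4E, had 22.8, 22.7, 20.01 and 21.2 FPKM in WT and 26.1, 25.1, 27.4 and 25.5 in KO. Its groups were separate (log2 fold change 0.26, standard error 0.11, limma p = 0.0401, exact permutation p = 0.0286), and after scaling the log2 fold change was 0.16 (exact permutation p = 0.343).

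In the deadenylation list, 1 of 15 genes was called higher and 10 were above 0. The called gene was Btg2, an antiproliferative gene that recruits the CCR4-NOT deadenylase, with 19.4, 13.1, 8.13 and 14.6 FPKM in WT and 17.9, 26.3, 26.0 and 18.1 in KO. WT1 overlapped the KO libraries (log2 fold change 0.72, standard error 0.27, limma p = 0.0281, exact permutation p = 0.0857). In Argonaute loading and modification, 1 of 14 tested genes was called higher and 13 were above 0. Limd1, a scaffold of silencing complexes, had 10.1, 9.29, 10.5 and 12.0 FPKM in WT and 11.4, 15.5, 12.8 and 13.2 in KO, a log2 fold change of 0.33 (standard error 0.14, limma p = 0.0488, exact permutation p = 0.0571). WT4 lay above KO1, so its groups overlapped.

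In the 3 remaining lists 0 genes were called. The smallest limma p-values there were those of Zc3h12a, an RNase, among 7 partners of DICER1 and regulators of the hairpin (log2 fold change 0.52, exact permutation p = 0.143), of Eri1, an exonuclease, among 7 turnover and tailing genes (0.47, p = 0.0571), and of Pabpc1, the poly(A)-binding protein, among 9 other partners of the silencing complex (0.61, p = 0.0857). Pabpc1 had 216 FPKM in WT1, 94.0 to 128 in WT2 to WT4, 209 to 229 in KO1 to KO3 and 151 in KO4. High and low libraries were thus the same ones as for the Ago2 share.

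**Figure D4:**
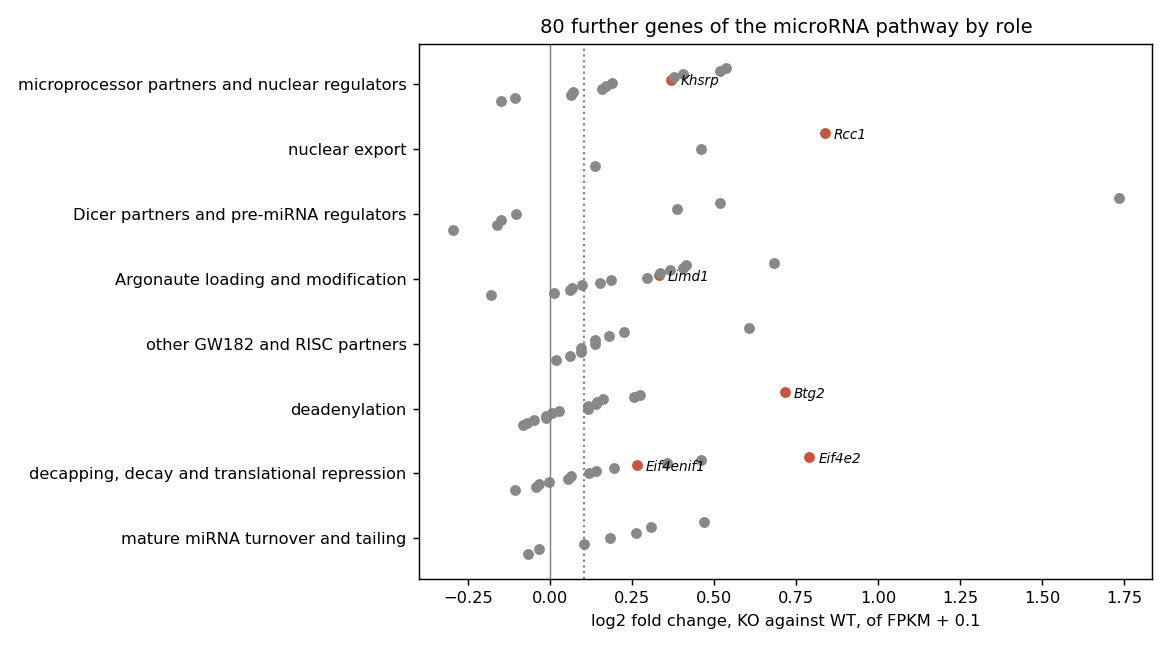
Log2 fold change of FPKM + 0.1, KO against WT (horizontal axis), of the 80 tested pathway genes, 1 point per gene in rows by role. Red points with names are the 6 genes at an unadjusted limma p-value under 0.05, all above 0, and the dotted line marks the median of all tested genes, 0.10.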

How the data were processed

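The authors depleted ribosomal RNA from cochlear RNA, made strand-specific libraries, mapped paired-end reads with Hisat2 (2.0.4) and deposited FPKM per gene in 1 column per library. The tool and annotation behind the FPKM are not given in the sources used here. The submitters' processing notes name mm9, but 19771 of 21760 gene identifiers found in GENCODE mouse release 21 have its GRCm38 coordinates, those of the 10 genes included. The authors tested counts with DESeq2, and counts were not used here.

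Values of log2(FPKM + 0.1) were compared by limma 3.58.1 under R 4.3.3 (genotype as the factor, variances moderated with a trend) over genes with a mean of at least 0.5 FPKM, so fold changes are on that scale. The fit was tested on simulated data with independent noise for each gene and library. Those data held no library that stood apart as WT1 does, so the simulation cannot show how the fit behaves with one. Intervals are 95% limma intervals. Genes named by rule beyond the 10 were those called in the pathway list, the smallest p-value of each role and the 5 most similar genes. Cnot6, Lsm14a, Lin28a and Lin28b were named after their values were seen. Tnrc6b and Tnrc6c were named as paralogues of Tnrc6a, and Trim71 as the pathway gene that did not pass the filter. Marker genes came from the lists of cell types. The 10 genes and the lists were chosen with earlier results of these data known. Alternatives were a pseudocount of 1, no filter or a minimum of 1 FPKM, median-ratio scaling, quantile normalization, a replicate block, the 3 libraries per group numbered 1 to 3, and leaving out each library. A two-sided exact permutation test of single genes was added after the data were seen. Columns of samples left unused were 0.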

Additional observations from a re-analysis of the deposited data

Results flagged for a closer look

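Within each group of 4 libraries, the highest or lowest value was set apart from the rest by a gap test (Dixon). It was run for 66 groups of values, of which 7 stood out, where chance alone gives about 1 in 20. The 66 groups were not independent, because shares, sums and ratios were built from the same genes. No excess can therefore be read from the count. Ago2 in WT3 was 12.8 FPKM, below 15.6 to 16.0 in the other WT libraries. The Ago2 share of the summed Argonaute FPKM in KO4 was 35.3%, below 46.5% to 48.2% in KO1 to KO3. The Ago4 share in WT2 was 8.86%, above 6.28% to 6.52% in the other WT libraries. The summed Argonaute level in KO2 was 46.3 FPKM, above 43.2 to 43.6 in the other KO libraries. Khsrp in KO4 was 29.3 FPKM, below 33.7 to 34.2 in KO1 to KO3. Zc3h12a in WT1 was 5.21 FPKM, above 2.60 to 3.04 in WT2 to WT4. The Tnrc6b share of the summed Tnrc6 FPKM in WT1 was 49.4%, above 37.2% to 38.4% in WT2 to WT4.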

How the results depend on the processing

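A pseudocount of 1, no filter and a minimum mean of 1 FPKM kept each log2 fold change of the 10 genes on its side of 0 and of the threshold. Median-ratio scaling gave Xpo5 -0.092 and Dicer1 -0.075, ended the call of Ago2, brought Tnrc6a past the threshold and left 3 pathway genes called. Quantile normalization gave Xpo5 -0.094, Dicer1 -0.070 and Ago4 -0.033, did the same to Ago2 and Tnrc6a and left 3 pathway genes, in a fit that called 925 of 14990 genes, 378 higher and 547 lower. With the 3 libraries per group numbered 1 to 3, Xpo5 was at -0.0058 and Dicer1 at -0.030. Without WT1 and with median-ratio scaling, an alternative chosen after seeing the data, 3 of the 10 genes (Ago2 higher, Ago3 and Tnrc6a lower), 12 pathway genes and 3252 of all genes were called, and Dicer1 was at -0.00082. Leaving out each library in turn gave 0 to 2 called genes of the 10, 1 to 11 of the pathway and 347 (without KO3) to 2922 (without WT1) of all. The log2 fold changes then ran from -0.015 to 0.036 for Xpo5, -0.047 to 0.11 for Dicer1, -0.00019 to 0.36 for Tarbp2 and -0.14 to 0.067 for Ago1. The exact permutation test, also chosen after seeing the data, left 0 of the 10 genes and 4 pathway genes. The cause was not tested.

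WT and KO libraries share replicate numbers, and the correlation between deviations of WT and KO libraries with 1 number was 0.419, -0.24, -0.17 and 0.21, so the numbers were not taken as pairs. With the replicate number as a block, 0 of the 10 genes (Ago2 was no longer called), 7 pathway genes and 838 of all genes were called.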

Other observations

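Lin28a and Lin28b encode the RNA-binding proteins that block the making of let-7 microRNAs, and neither was called over the 8 libraries. Lin28a had 4.97, 0.875, 0.0612 and 0.911 FPKM in WT1 to WT4 and 4.27, 2.23, 3.99 and 2.27 in KO1 to KO4. Its log2 fold change was 1.73 (standard error 0.89, limma adjusted p = 0.947). Without WT1 it was 2.54 (limma adjusted p = 0.145), called at an unadjusted p-value under 0.05 in a fit that called 12.1% of all genes higher. Lin28b had 0.599, 1.103, 1.88 and 1.58 FPKM in WT and 1.05, 0.852, 0.826 and 1.11 in KO, with WT1 the lowest library where it was the highest for Lin28a (log2 fold change -0.30, limma adjusted p = 0.970). Both genes were singled out after their values were seen.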
